A study of Mus musculus with 13 samples.

Results

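Dermal fibroblasts were taken from the E14.5 libraries of a droplet single-cell RNA series on mouse skin. A cell was kept with 600 to 4800 detected genes and at most 10% of its UMIs (unique molecular identifiers, 1 per counted transcript) from mitochondrial genes. It was called a dermal fibroblast when Col1a1, Col1a2 and Col3a1 together reached 50 UMIs per 10000, at least 1 of Pdgfra, Lum and Twist2 was detected, and Krt5, Krt14 and Krt10 together had at most 5 UMIs. Cells with a Sox2 UMI, the mark of the dermal condensate, were left out, and at most 1 of Rgs5 (pericyte), Myog and Pax7 (muscle), Sox10 (neural crest and Schwann) and Pecam1 (endothelium) could be detected. The rule found 14762 of the 24357 kept cells at E14.5, or 60.6%, among 86507 kept cells of the 13 libraries in the series. WT1 held 2815 of these fibroblasts and WT2 3809, and the Grhl3-/- libraries KO1 and KO2 held 4057 and 4081. The cells were thus chosen by measured values of these genes, whose levels are given as a description.

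The embryos were C57BL/6 mice at E14.5, counted in days of gestation, with 2 wild-type (WT) libraries and 2 Grhl3-/- (KO) libraries, each from whole back skin with all of its cells. GRHL3 is a transcription factor of the epidermis, and the KO carries the deletion in every cell of the embryo. By the study's methods the genotypes were littermates, and skin was cut anterior to the open spine of the mutants. The same rule applied to the E16.5 back skin, again 2 WT and 2 KO libraries, gave 13882 of 27298 kept cells for comparison. One library is 1 embryo and is the unit of replication throughout, so each genotype at each age has n = 2.

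In the embryo, dermal fibroblasts share a progenitor and then part into an upper lineage next to the epidermis and a lower lineage. The upper lineage receives epidermal Wnt signals, makes the papillary dermis and supplies the dermal condensates of hair follicles. The lower lineage makes the reticular dermis and the precursors of fat. Crabp1 encodes a cytosolic protein that binds retinoic acid and marks the upper dermis, whereas Dlk1 encodes an imprinted transmembrane protein of the EGF family that holds back adipocyte differentiation and marks the lower dermis. Fibroblasts can be arranged between these genes, and that arrangement is what the results below describe.

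Crabp1 (ENSMUSG00000032291) lies on the plus strand of chromosome 9 from 54764748 to 54773110 in GRCm38, and Dlk1 (ENSMUSG00000040856) on the plus strand of chromosome 12 from 109452823 to 109463336. Their promoters are shown because the results turn on these genes, and the windows differ in base composition. Each window runs from 250 bases before to 50 bases after the RefSeq transcript start on GRCm38.p6, at chr9:54764498-54764797 and chr12:109452573-109452872. Capitals mark the GC box GGGCGG, read on both strands.
Crabp1: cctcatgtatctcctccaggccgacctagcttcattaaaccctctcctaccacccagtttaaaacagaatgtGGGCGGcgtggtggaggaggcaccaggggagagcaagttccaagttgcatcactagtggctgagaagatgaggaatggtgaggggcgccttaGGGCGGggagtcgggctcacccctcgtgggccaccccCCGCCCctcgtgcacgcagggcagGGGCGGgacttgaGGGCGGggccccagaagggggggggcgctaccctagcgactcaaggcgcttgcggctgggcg
Dlk1: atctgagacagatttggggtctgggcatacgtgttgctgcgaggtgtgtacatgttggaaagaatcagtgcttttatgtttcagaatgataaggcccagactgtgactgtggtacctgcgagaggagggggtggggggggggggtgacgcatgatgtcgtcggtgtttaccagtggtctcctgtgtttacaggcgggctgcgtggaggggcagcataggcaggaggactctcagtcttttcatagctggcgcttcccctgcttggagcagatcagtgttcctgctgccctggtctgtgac
The Crabp1 window had a GC content of 65% and 5 GC boxes, and the Dlk1 window had 55.7% and none. Of 32851 RefSeq promoter windows in the mouse, 35.7% held at least 1 GC box and 10.7% held 3 or more, and the median GC content was 52.7%. The E-box CANNTG, which binds TWIST-type factors, matched neither window on either strand and occurred in 72.3% of all windows. The TATA box TATAAA, likewise absent from both, occurred in 13.6%. The LEF and TCF core CTTTGA was also without a match and occurred in 16.003%. No base belonged to 2 motifs.

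Depth in the fibroblasts was 24581344 UMIs in WT1, 34246363 in WT2, 32328850 in KO1 and 35008064 in KO2, with median UMIs per cell of 7663 to 8372. Fibroblasts were 53.4% of kept cells in WT1 (exact 95% interval 52.1 to 54.8), 63.3% in WT2, 66.4% in KO1 and 58.6% in KO2. The genotypes overlapped in this share, and 2 against 2 libraries cannot give an exact p below 0.333. Between libraries 8 to 31 cell barcodes were shared. Libraries stood apart in several ways that bear on later results. Xist was 1061 counts per 1000000 UMIs (CPM) in WT2 and at most 0.57 in the other 3 libraries, while the Y-linked gene Ddx3y was 57.4 to 65.3 CPM in those 3 and 0.03 in WT2. Both KO embryos thus had a male pattern and the WT embryos 1 of each, so Xist and Y-linked genes were not named by genotype, and an X-linked gene is marked where it is named by genotype. Grhl3 itself was at 0.22 to 0.64 CPM in the fibroblasts. In the keratinocytes of the same libraries it was 49.2 and 60.7 CPM in WT and 37.3 and 35.9 CPM in KO. Counting at the 3′ end of a transcript may fall outside the deleted part, so these values do not check the genotype labels.

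The cells carried fibroblast markers in every library. Col1a1, a chain of type I collagen, was at 4168, 4035, 4868 and 4463 CPM in WT1, WT2, KO1 and KO2, against 343 to 442 CPM in the other kept cells. Col3a1, type III collagen, was at 3888, 3650, 4793 and 4490 CPM. Lum, the keratan sulfate proteoglycan lumican, was at 2169, 2174, 2224 and 2752 CPM, and 234 to 317 CPM elsewhere. All 3 were several-fold higher in the selected cells in each library, which the selection itself fixes. The collagen limit cut through a continuous range. Between 50 and 55 UMIs per 10000, just inside it, lay 85, 140, 69 and 87 cells, and between 45 and 50, just outside it, 104, 116, 54 and 81.

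RNA of other cell types was present, as free RNA or as other cells. The cell rule limited Krt5, Krt14 and Krt10, so the keratinocyte level was in part fixed by it. Summed keratinocyte genes were at 125, 142, 206 and 354 CPM in WT1, WT2, KO1 and KO2, and summed blood genes, mostly globins, at 6216, 5961, 5545 and 5059 CPM. Cartilage and tendon genes were at 94.8, 148, 76.7 and 35.3 CPM, muscle genes at 53.3 to 73.9 CPM and macrophage genes at 64.3 to 86.8 CPM. Within that set Col2a1, the cartilage collagen, was at 11.9 and 15.8 CPM in WT and at 0.56 and 0.69 CPM in KO.

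Crabp1 and Dlk1 were both abundant and both uneven. Crabp1 was at 1898, 1567, 2333 and 2638 CPM in the summed fibroblasts of WT1, WT2, KO1 and KO2. Dlk1 was at 8125, 5286, 4541 and 4318 CPM. WT1 had the highest Dlk1, and both KO libraries lay above both WT libraries in Crabp1 and below both in Dlk1. In summed counts, a smaller number of expressing cells and less RNA per cell cannot be told apart, so the cells are described next.

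To compare libraries at 1 depth, each cell was thinned to 2500 UMIs, a depth that every E14.5 fibroblast reached. Crabp1 then had a UMI in 73.1%, 63.9%, 77.8% and 81.4% of the fibroblasts. Dlk1 had one in 99.5%, 97.4%, 99.0% and 98.8%. Nearly all cells therefore had Dlk1, and 72.8%, 62.7%, 76.9% and 80.3% had both. Cells with Crabp1 and without Dlk1 were rare, at 9, 48, 38 and 45 cells or 0.32% to 1.26%, whereas Dlk1 without Crabp1 made up 26.7%, 34.8%, 22.2% and 18.5%. In keratinocytes, which should lack both genes, Crabp1 had a UMI in 10.3% to 20.2% of cells and Dlk1 in 30.9% to 45.4% at the same depth. Since 1 UMI occurred in that many cells that should lack the gene, the range was measured by amounts.

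Each cell received a score, log2 of (Crabp1 per 10000 UMIs plus 1) over (Dlk1 per 10000 UMIs plus 1). A score of 0 means equal levels, and low scores mean more Dlk1. The median score was −1.96 in WT1, −2.75 in WT2, −0.66 in KO1 and −0.11 in KO2. The lowest 10% of cells lay at or under −6.36 to −5.33, and the highest 10% at or above 0.96 to 1.83. Both KO medians were above both WT medians. Across cells, Crabp1 and Dlk1 had a Spearman correlation of −0.56, −0.52, −0.73 and −0.73 in the 2815, 3809, 4057 and 4081 cells of WT1, WT2, KO1 and KO2. These are descriptions over cells that share a library, and the cell totals enter both genes. After thinning they were −0.54, −0.52, −0.67 and −0.67.

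**Figure D1:**
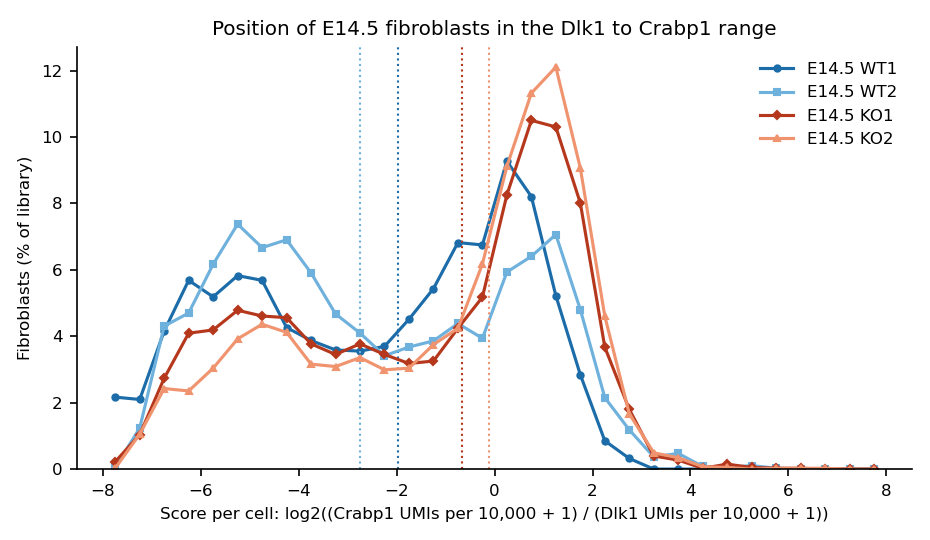
Distribution of the Crabp1 to Dlk1 score per cell (horizontal axis, log2 ratio) as the percent of the fibroblasts of each E14.5 library, with dotted lines at the medians. Each library has a group of cells at low scores and one at and above 0, and the KO medians of −0.66 and −0.11 lie above those of WT, −1.96 and −2.75.

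The shape was not a single hump. Every library had many cells near −5, with much Dlk1 and little Crabp1, and many between 0 and 2, with cells at all scores between. Crabp1 alone gave the same order of libraries without using Dlk1. At 10 or more Crabp1 UMIs per 10000 were 53.8% of the fibroblasts in WT1, 41.2% in WT2, 59.4% in KO1 and 66.5% in KO2. Below 2 per 10000 were 24.0%, 33.7%, 20.3% and 14.9%. Neither share overlapped between the genotypes, the gap between WT1 and KO1 was smaller than that between the WT libraries, and the smallest exact p that 2 against 2 allows is 0.333.

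The Dlk1 domain of WT1 differed from that of the other libraries. Dlk1, Rtl1 and Dio3 are expressed from the paternal copy of an imprinted domain on chromosome 12, and the noncoding RNAs Meg3 and Mirg from the maternal copy. These genes were chosen after their values were seen. Rtl1 was at 26.1 CPM in WT1 and at 7.83, 6.74 and 6.94 CPM in WT2, KO1 and KO2. Dio3 was at 32.5 CPM in WT1 and at 14.6, 5.29 and 4.28 CPM in the others. Meg3 was at 2599 CPM in WT1 and at 7807, 6920 and 6718 CPM. Mirg was at 18.4 CPM in WT1 against 41.9, 47.6 and 38.9 CPM. WT1 was thus the highest library for the 3 paternally expressed genes and the lowest for both maternally expressed RNAs. Igf2 and H19, an imprinted pair on another chromosome, were at 548 and 1790 CPM in WT1 and at 505 and 1658 CPM in WT2. At E16.5, Meg3 was at 3689 to 4055 CPM and Rtl1 at 4.25 to 5.398 CPM. Any statement on the level of Dlk1 by genotype therefore rests on 1 WT library with unusual values. Dlk1 was 0.62 lower in KO on the log2 scale (SE 0.25, adjusted p = 0.33, edgeR).

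To see what else changed along the range, the fibroblasts of each library were put in order of score and divided into 10 equal bins. Crabp1 rose from 7.0 to 48.2 CPM in the first bin of the 4 libraries to 5026 to 6023 CPM in the last. Dlk1 fell from 9713 to 16931 CPM to 1165 to 1778 CPM. Both follow from the ordering. The other genes in the lists did not enter it, but the lists were chosen with earlier results of these data known. Their counts along the range therefore describe it and are no independent check. In a summed level, abundant genes weigh most.

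Lower dermis genes without Dlk1 fell from 9257 to 11495 CPM in the first bin to 1029 to 1410 CPM in the last, where every library had its minimum. Upper dermis genes without Crabp1 went from 1186 to 1408 CPM in the first bin to 2799 to 3267 CPM in the last, which was the maximum in every library. The summed imprinted genes without Dlk1 went from 27881 to 37065 CPM to 10359 to 11477 CPM. Genes of G2 and M phase went from 2596 to 3338 CPM in the first bin to a maximum in bin 8 or 9. WT2 kept high lower dermis levels further along the order than the other libraries, with 6024 CPM in bin 6 against 2037 to 3574 CPM.

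**Figure D2:**
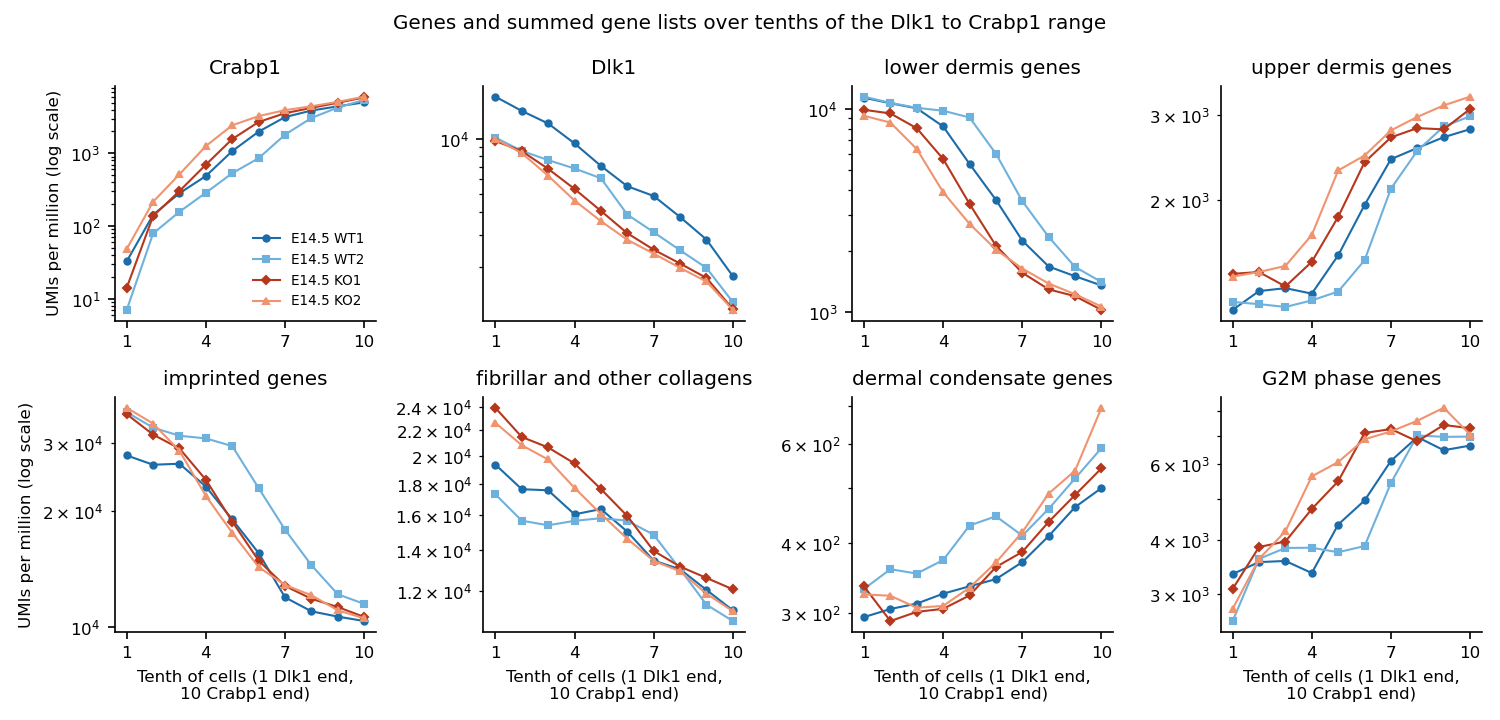
Levels in UMIs per 1000000 (log axes that do not start at 0 and differ between panels) of Crabp1, Dlk1 and 6 summed gene lists over the 10 bins of the score order, from bin 1 (Dlk1 end) to bin 10 (Crabp1 end), 1 line per E14.5 library. The lower dermis genes end at 1029 to 1410 CPM and the upper dermis genes at 2799 to 3267 CPM.

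For tests, the 3 equal parts of each library's order were used, and the part with the lowest scores (the Dlk1 end) was compared with the part with the highest (the Crabp1 end). Each end held 938 to 1361 cells per library. UMIs were summed per library and end, Crabp1 and Dlk1 were removed, and edgeR's quasi-likelihood test compared the ends within libraries. The ends were cut on expression in the same cells, so a difference at a gene that varies with either axis gene follows from the cut in part, and the values describe the range. Of 12580 genes tested 63.3% passed an adjusted p of 0.05, 31.0% higher at the Crabp1 end and 32.3% higher at the Dlk1 end. At a change of at least 2-fold these were 713 genes (5.67%) and 1598 genes (12.7%). The cells at the Crabp1 end had slightly lower depth, with medians of 7160 to 7880 UMIs against 7719 to 8760, and less collagen, with 86.3 to 96.6 against 119 to 181 UMIs per 10000. Collagen is part of the cell rule, so cells of the Crabp1 end lay nearer to its limit.

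Most upper dermis genes were higher at the Crabp1 end. Of 19 upper dermis genes tested, 14 were higher there, Twist2 of the cell rule among them, and 4 at the Dlk1 end, with a median log2 difference of 1.70 against −0.02 over all genes. Lef1, the nuclear partner of beta-catenin, was at 2.32, 2.94, 3.04 and 4.71 CPM at the Dlk1 end of WT1, WT2, KO1 and KO2. At the Crabp1 end it was at 60.0, 62.6, 72.3 and 82.2 CPM, a log2 difference of 4.44 (SE 0.10, adjusted p = 7.3e-11). The groups were far apart in each library. Sp5, a direct Wnt target and repressor, went from 1.85 to 8.40 CPM at the Dlk1 end to 73.3 to 92.4 CPM at the Crabp1 end. Runx3, a runt-domain factor, went from 0.42 to 1.93 CPM to 35.7 to 65.6 CPM, with a log2 difference of 5.52 (SE 0.15, adjusted p = 3.7e-10).

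The 4 upper dermis genes that were higher at the Dlk1 end were Dkk2, Tnc, Ntn1 and Tbx18. Dkk2, a secreted Wnt modulator, was at 119, 123, 141 and 163 CPM at the Dlk1 end and at 6.83, 16.6, 3.03 and 3.13 CPM at the Crabp1 end. The list's name therefore did not hold for these members in E14.5 skin.

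Among 39 Wnt pathway genes tested, 21 were higher at the Crabp1 end and 15 at the Dlk1 end, against 31.0% and 32.3% of all genes. The 15 were thus near the share of all genes. At a change of at least 2-fold these were 17 and 10, against 5.67% and 12.7% of all genes. Secreted inhibitors lay at both ends. Sfrp5, a secreted Frizzled-related inhibitor that was in none of the lists, was at 1.85, 4.29, 3.50 and 5.798 CPM at the Dlk1 end and at 183, 229, 240 and 231 CPM at the Crabp1 end. Its log2 difference of 5.85 (SE 0.17, adjusted p = 2.4e-06) was the largest among abundant genes there. Of the listed inhibitors, Wif1, which binds Wnt ligands, went from 10.2 to 31.5 CPM to 230 to 254 CPM, and Dkk1 from 0.59 to 4.37 CPM to 32.9 to 50.2 CPM. Notum, an enzyme that inactivates Wnts, went from 1.04 to 2.10 CPM to 21.9 to 37.4 CPM.

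Other members of the same inhibitor family were placed at the opposite end. Sfrp2 was at 1244, 1586, 1077 and 908 CPM at the Dlk1 end and at 84.6, 115, 27.9 and 21.0 CPM at the Crabp1 end, a log2 difference of −4.48 (SE 0.45, adjusted p = 0.0037). Sfrp1 went from 241 to 302 CPM at the Dlk1 end to 23.8 to 36.5 CPM. Ligands were divided too. Wnt6 was at 5.68 to 12.9 CPM at the Dlk1 end and at 60.1 to 66.0 CPM at the Crabp1 end, while Wnt2 was at 60.7 to 81.9 CPM at the Dlk1 end and at 6.35 to 9.00 CPM at the other. Of the feedback targets, Axin2 differed by 1.35 and Nkd1 by 2.17 on the log2 scale toward the Crabp1 end.

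Most Hedgehog pathway genes were higher at the Crabp1 end. Of 11 tested, 7 were higher there and 1, Cdon, at the Dlk1 end. Ptch1, the receptor that Hedgehog signalling induces, was at 5.796, 3.70, 7.08 and 8.15 CPM at the Dlk1 end and at 34.6, 31.6, 32.4 and 33.3 CPM at the Crabp1 end, a log2 difference of 2.46 (SE 0.15, adjusted p = 2.2e-06). Gli1 differed by 2.00, whereas Smo and Gli3 differed by 0.01 and 0.07 and did not pass. Dermal condensate genes followed, with 12 of 17 higher at the Crabp1 end and 3 at the Dlk1 end, although cells with Sox2 had been removed. That list also holds Ptch1, Gli1 and Notum, so its count is not separate from the Hedgehog and Wnt counts. Bmp4, the condensate's BMP ligand, was at 10.1, 21.0, 12.5 and 12.7 CPM at the Dlk1 end and at 35.0, 39.7, 46.4 and 48.8 CPM at the Crabp1 end. Inhba, a subunit of activin, went from 6.25 to 14.7 CPM to 52.5 to 74.1 CPM. The 3 at the Dlk1 end were Bmp3, Sdc1 and Glis2.

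The Dlk1 end carried the lower dermis genes. Of 19 tested, 18 were higher there (median log2 difference −3.10). The remaining gene, Meox1, differed by −1.80 without passing. Mfap5, a microfibril protein, was at 415, 368, 240 and 170 CPM at the Dlk1 end and at 7.95, 10.8, 3.42 and 2.12 CPM at the Crabp1 end, a log2 difference of −5.63 (SE 0.20, adjusted p = 3.1e-05). Ebf2, a factor of the fat lineage, went from 15.3 to 54.1 CPM to 0.28 to 1.67 CPM. Ly6a, the surface antigen Sca-1, went from 40.5 to 84.4 CPM to 0.59 to 1.48 CPM. Ptn, the growth factor pleiotrophin, was among the most abundant, at 1978 to 3864 CPM at the Dlk1 end and at 106 to 281 CPM at the other. Of the abundant genes outside the lists Clec3b, which encodes tetranectin, was the most different, at 339, 285, 221 and 217 CPM against 3.90, 4.45, 2.84 and 3.13 CPM (log2 −6.15, SE 0.07, adjusted p = 8.4e-13).

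Preadipocyte genes were on the same side, 7 of 9 higher at the Dlk1 end. Pparg, the nuclear receptor that commits cells to fat, was at 25.9, 37.1, 30.9 and 15.8 CPM at the Dlk1 end and at 6.83, 7.24, 4.40 and 3.31 CPM at the Crabp1 end (log2 −2.31, SE 0.13, adjusted p = 5.4e-08). Fabp4, the fatty acid binding protein of adipocytes, differed by −1.81, and Cebpa and Cebpb by −0.24 and −0.07 without passing.

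**Figure D3:**
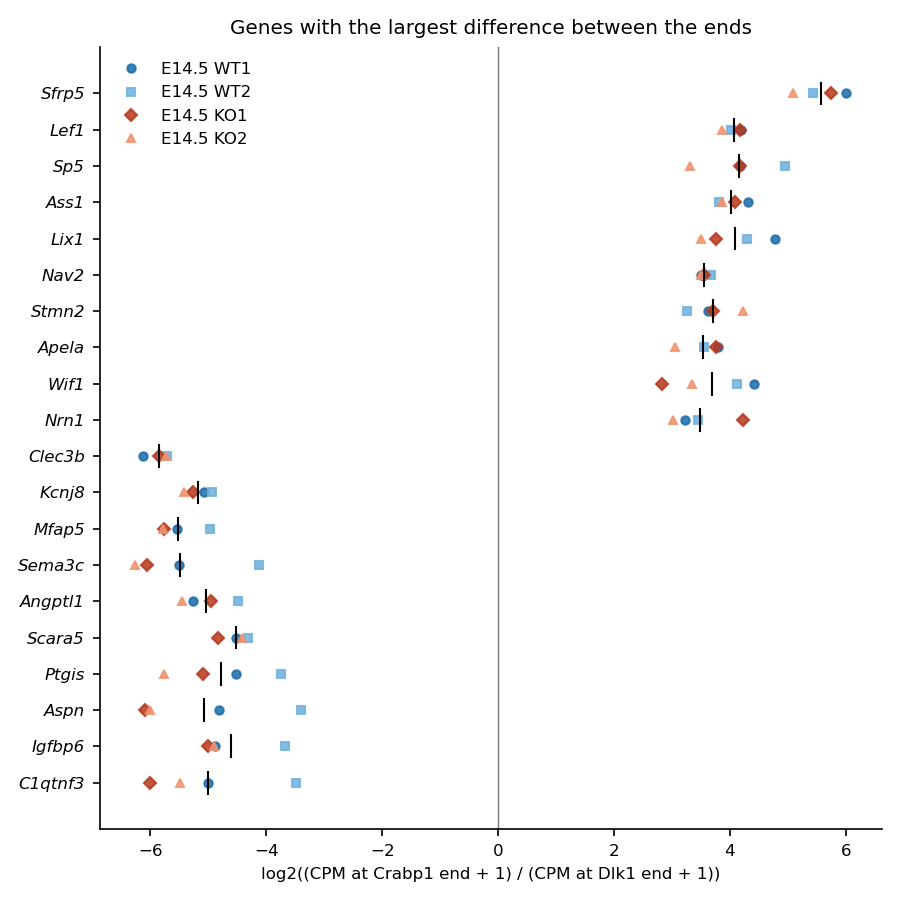
Difference between the ends in each E14.5 library, as log2 of (CPM at the Crabp1 end plus 1) over (CPM at the Dlk1 end plus 1), for the 10 most different named genes in each direction, with a tick at the mean of the 4 libraries. All 4 libraries lie on the same side of 0 for each gene, which the rule for naming them required, from Sfrp5 at the Crabp1 end to Clec3b and Mfap5 at the Dlk1 end, and WT2 has the smallest difference for each of the 10 genes of the Dlk1 end.

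Imprinted genes went with Dlk1. Of 27 tested without Dlk1 itself, 23 were higher at the Dlk1 end and 1, Snrpn, at the Crabp1 end, with a median of −1.66. Cdkn1c, the cyclin-dependent kinase inhibitor p57, was at 6649, 6211, 4971 and 5117 CPM at the Dlk1 end and at 947, 1058, 728 and 786 CPM at the Crabp1 end (log2 −2.67, SE 0.04, adjusted p = 8.3e-11). Plagl1, a zinc finger factor of the imprinted growth genes, went from 568 to 729 CPM to 28.9 to 45.4 CPM, and Igf2, a fetal growth factor, from 714 to 873 CPM to 97.7 to 158 CPM. Meg3, the noncoding RNA of the Dlk1 domain, was at 3506, 11081, 11614 and 11862 CPM at the Dlk1 end and at 1723, 3787, 3390 and 3204 CPM at the other, so WT1 was low at both ends.

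Cell cycle genes went the opposite way. All 52 G2 and M phase genes were tested, 49 were higher at the Crabp1 end, with a median of 1.05. Of 42 S phase genes 35 were higher at the Crabp1 end. Birc5, the mitotic protein survivin, was at 163, 154, 189 and 183 CPM at the Dlk1 end and at 398, 404, 448 and 459 CPM at the Crabp1 end. By a score on cells thinned to 2500 UMIs, 18.4%, 18.3%, 21.8% and 21.2% of the Dlk1 end and 42.9%, 44.8%, 47.5% and 48.2% of the Crabp1 end were in S or G2M phase. The difference was 25.9 percentage points (SD 1.10, n = 4 libraries) and had this direction in 4 of 4, with an exact two-sided p of 0.13, the smallest that 4 pairs allow. The phase classes were cut from a score, and 16.2% to 19.6% of cells lay near a cut.

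Matrix genes were mostly at the Dlk1 end. Of 20 collagen genes tested, leaving aside the 3 chains of the cell rule, 10 were higher there and 4 at the Crabp1 end. The shares of all genes were 32.3% and 31.0%. Col14a1, a collagen that sits on fibrils, was at 120, 156, 154 and 99.7 CPM at the Dlk1 end and at 10.5, 24.4, 14.8 and 11.1 CPM at the Crabp1 end (log2 −3.10, SE 0.14, adjusted p = 9.5e-06). Col5a1 and Col5a2, which set fibril diameter, differed by −1.25 and −1.10. The 4 at the Crabp1 end were the type VI chains Col6a1, Col6a2 and Col6a3, by 0.18, 0.16 and 0.52, and Col9a1, a cartilage collagen, by 2.81.

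Of 26 genes of elastic fibres and matricellular proteins 23 were higher at the Dlk1 end, and Fbln1, fibulin-1, was the only one higher at the Crabp1 end, by 1.19. Postn, the matricellular protein periostin, was at 1032, 1080.0, 700.0 and 855 CPM at the Dlk1 end and at 97.6, 143, 86.0 and 97.3 CPM at the other. Of 21 collagen processing genes 18 were higher at the Dlk1 end. Loxl1, a crosslinking oxidase, differed by −4.23, whereas P4ha2, a prolyl hydroxylase subunit, was at 55.1 to 80.8 CPM at the Dlk1 end and at 196 to 253 CPM at the Crabp1 end (log2 1.70, SE 0.17, adjusted p = 0.0018). Lum, used by the cell rule, was at 1440.2 to 1972 CPM at the Dlk1 end and at 3001 to 3481 CPM at the Crabp1 end.

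Retinoid genes lay at both ends. Of 16 tested without Crabp1, 4 were higher at the Crabp1 end and 7 at the Dlk1 end, against 31.0% and 32.3% of all genes. At a change of at least 2-fold these were 3 and 6, against 5.67% and 12.7% of all genes. The median log2 difference of the list was −1.31. Aldh1a3, a retinaldehyde dehydrogenase that makes retinoic acid, went from 19.8 to 27.6 CPM at the Dlk1 end to 1.10 to 2.13 CPM at the Crabp1 end. The Crabp1 end had the receptors Rarg, Rarb and Rxrg and Cyp26b1, which degrades retinoic acid. Rarg was at 31.1 to 40.8 CPM at the Dlk1 end and at 61.2 to 76.3 CPM at the Crabp1 end. Cyp26b1 was low at both, from 1.16 to 3.87 CPM to 8.60 to 14.8 CPM. Crabp2, the other binding protein, differed by −0.26 and did not pass.

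Growth factor genes also lay at both ends. Of 26 FGF and PDGF genes 9 were higher at the Crabp1 end, Pdgfra of the cell rule among them, and 11 at the Dlk1 end. The shares of all genes were 31.0% and 32.3%. At a change of at least 2-fold these were 6 and 11 genes, against 5.67% and 12.7% of all genes. The Crabp1 end had the receptors Fgfr1 and Fgfr2, by 0.84 and 1.63, and the FGF-responsive factors Etv4 and Etv5, by 2.66 and 1.91. The Dlk1 end had ligands, with Fgf7 by −4.49 and Igf1, at 252 to 383 CPM there and at 22.1 to 37.0 CPM at the other, by −3.43. Of 25 BMP genes 17 were higher at the Dlk1 end, among them the antagonist-like Chrdl1 by −4.42, and 5 at the Crabp1 end, among them the antagonist Nog by 1.56. Of 38 dermal transcription factors 11 and 17 were higher at the Crabp1 and the Dlk1 end, against 31.0% and 32.3% of all genes. Zeb2, a zinc finger repressor, was at 72.4 to 107 CPM and 320 to 385 CPM at these ends, and Nr2f1, an orphan nuclear receptor, at 6.97 to 31.5 CPM and 1.20 to 3.53 CPM, so each was on its own side in all 4 libraries. Of 23 Hox genes 10 were higher at the Crabp1 end and 3 at the Dlk1 end. Hoxd8 was at 6.81 to 17.8 CPM and 31.1 to 42.0 CPM at the Dlk1 and the Crabp1 end.

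Some lists for other cells and for stress moved with the ends. Over all genes, 31.0% were higher at the Crabp1 end and 32.3% at the Dlk1 end. Of 18 early-response and heat-shock genes 14 were higher at the Dlk1 end, with Fos by −1.11 and Dusp1 by −1.51, and 2 at the Crabp1 end, Junb and Nr4a1. Of 8 pericyte genes 7 were higher at the Dlk1 end, and among them Kcnj8, a potassium channel, was at 110 to 120 CPM against 1.84 to 2.60 CPM, while Rgs5, the marker used by the rule, differed by −0.59 and did not pass. Of 9 muscle genes 8 were higher there, as were the tendon genes Tnmd and Scx by −3.12 and −3.65. Of 17 immune and chemokine genes 12 were higher at the Dlk1 end, with B2m, the light chain of class I molecules, by −1.69. Of 18 translation genes 15 were higher at the Crabp1 end, with Eif4a1 by 0.64, and of 22 hypoxia and glycolysis genes 12 were higher there and 6 at the Dlk1 end. Of 9 blood genes 1 passed, and of 11 macrophage genes 0 did in edgeR, with 0 at an unadjusted p under 0.05 and 0 in DESeq2. The part of these other signals in the differences between the ends was not tested. When the ends were replaced by the presence or absence of Crabp1 and Dlk1 UMIs, 1999 genes passed in place of 7964. The class with Crabp1 and without Dlk1 held only 9 to 48 cells per library, against 938 to 1361 per end. The part of class size in this fall was not tested.

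Between genotypes few genes passed the test in the fibroblasts. Of 14365 genes tested, 218 (1.52%) passed at an adjusted p of 0.05 in edgeR, 82 (0.571%) higher and 136 (0.947%) lower in KO. The median absolute log2 difference was 0.135 between the WT libraries, 0.105 between the KO libraries and 0.138 to 0.153 between genotypes. Of 20 upper dermis genes, counted with Crabp1, 4 were higher in KO and 1, Tnc, lower. Lef1 was at 23.1, 24.6, 34.9 and 39.2 CPM in WT1, WT2, KO1 and KO2, a log2 difference of 0.62 (SE 0.09, adjusted p = 0.029). Runx3 was at 14.36, 14.51, 27.5 and 30.8 CPM (log2 1.001, SE 0.10, adjusted p = 0.0055). Neither overlapped between genotypes. Sp5 and Nkd1, a Wnt feedback inhibitor, were higher by 0.57 and 0.55. Crabp1 itself was higher by 0.50 (SE 0.13, adjusted p = 0.14) and did not pass.

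Of the 40 Wnt pathway genes 5 were higher in KO and 1 was lower. This list may share genes such as Lef1 and Sp5 with the upper dermis list, so the counts are not read as separate. Rspo1, a secreted amplifier of Wnt signals, was at 68.3, 76.4, 109 and 126 CPM (log2 0.69, SE 0.08, adjusted p = 0.014), and Fzd1, a receptor, was higher by 0.40. Dkk3 was lower, at 13.3 and 15.2 CPM in WT and 8.04 and 6.28 CPM in KO. Sfrp5 was at 68.2, 79.7, 120 and 117 CPM (log2 0.67, SE 0.07, adjusted p = 0.0082). None of 52 G2 and M phase genes and 42 S phase genes passed in edgeR, with median log2 differences of 0.26 and 0.12. At an unadjusted p under 0.05 were 36 and 11. No share over all genes was taken at that cut, so these counts cannot show an excess in either list. DESeq2 called 5 and 0, and 439 of all 14365 genes. Cells in S or G2M phase made up 31.1%, 28.3%, 38.3% and 38.4% of the libraries.

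A few early-response genes passed by genotype. Of 18 early-response and heat-shock genes, which also respond to dissociation of tissue, 3 were higher in KO and none was lower, with a median log2 difference of 0.05. Nr4a1, an orphan nuclear receptor, was at 26.7, 35.3, 65.5 and 55.6 CPM in WT1, WT2, KO1 and KO2 (log2 0.95, SE 0.13, adjusted p = 0.037), and Atf3 and Btg2 were higher by 0.64 and 0.44. The summed list was at 4356, 4663, 4664 and 4664 CPM, so WT2 was level with both KO libraries, and its part in the differences by genotype was not tested.

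Among the genes lower in KO, Igfbp6, an IGF binding protein, was at 43.0, 52.9, 23.6 and 20.4 CPM in WT1, WT2, KO1 and KO2 (log2 −1.14, SE 0.11, adjusted p = 0.0060). Nov, a matricellular protein of the CCN family, was at 54.8, 56.7, 31.4 and 23.9 CPM. Cdkn1c was at 3732, 4014, 2570 and 2644 CPM (log2 −0.58, SE 0.08, adjusted p = 0.025), the 1 imprinted gene of 28 that passed. The values of Cdkn1c were separate between genotypes, and those of Igfbp6 and Nov had to be for these genes to be named. Of 20 lower dermis genes 2 passed, Nov and Postn, and of 26 elastic fibre and matricellular genes 5 were lower, among them Fbln5, by −0.46. Postn is in both lists, so these counts are not separate.

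Since the KO libraries held more cells of high Crabp1, the genotypes were also compared among cells of like Crabp1, a step added after these results were seen. Among cells with at least 10 Crabp1 UMIs per 10000, 50 genes passed, and among cells with under 2, 123. These sums hold fewer cells than the whole. The named genes were chosen by their differences in all fibroblasts, and the classes were cut on Crabp1. Smaller differences within a class follow in part from these choices, and their cause was not tested. Lef1 differed by 0.24 (adjusted p = 0.43) in the high class and 0.19 (adjusted p = 0.89) in the low class by edgeR, Sp5 by 0.15 and 0.28, and Sfrp5 by 0.19 and 0.44. Of 18 named genes higher in KO and tested in both classes, all 18 had a smaller difference in the high class than in all fibroblasts, and 3 passed there. In the low class 10 of the 18 had a smaller difference and 6 passed. Of 21 named genes lower in KO, 11 had a smaller difference in the high class, where 6 passed, and 18 in the low class, where 3 passed. Igfbp6 differed by −1.36 and −0.40, and Cdkn1c by −0.35 and −0.20, with no call in either class.

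Some genes differed by a similar size in both classes. Arf5, a small GTPase of the Golgi, was at 273, 285, 494 and 502 CPM in WT1, WT2, KO1 and KO2, a log2 difference of 0.82 (SE 0.07, adjusted p = 0.0039), and differed by 0.79 and 0.80 in the high and the low class, passing in both. Stk25, a protein kinase, was at 60.5, 66.0, 36.8 and 36.3 CPM (log2 −0.80), with −0.86 and −0.84 in the classes, passing in both. Hist1h2bc, a histone gene, was higher by 0.85, with 0.71 and 0.94, passing in both. Others passed in the high class only, and the difference between the classes was not tested. Itm2a, a transmembrane protein encoded on chromosome X, was at 1415, 1768, 767 and 834 CPM (log2 −1.001, SE 0.10, adjusted p = 0.0075), with −1.003 in the high class, where it passed, and −0.36 in the low class, where it did not. In the 3 libraries of a male pattern it was at 1415 CPM in WT1 and at 767 and 834 CPM in KO. Ldhb, a lactate dehydrogenase subunit, was at 70.8, 71.5, 38.3 and 39.3 CPM, with −0.87 in the high class, where it passed, and −0.52 in the low class, where it did not.

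**Figure D4:**
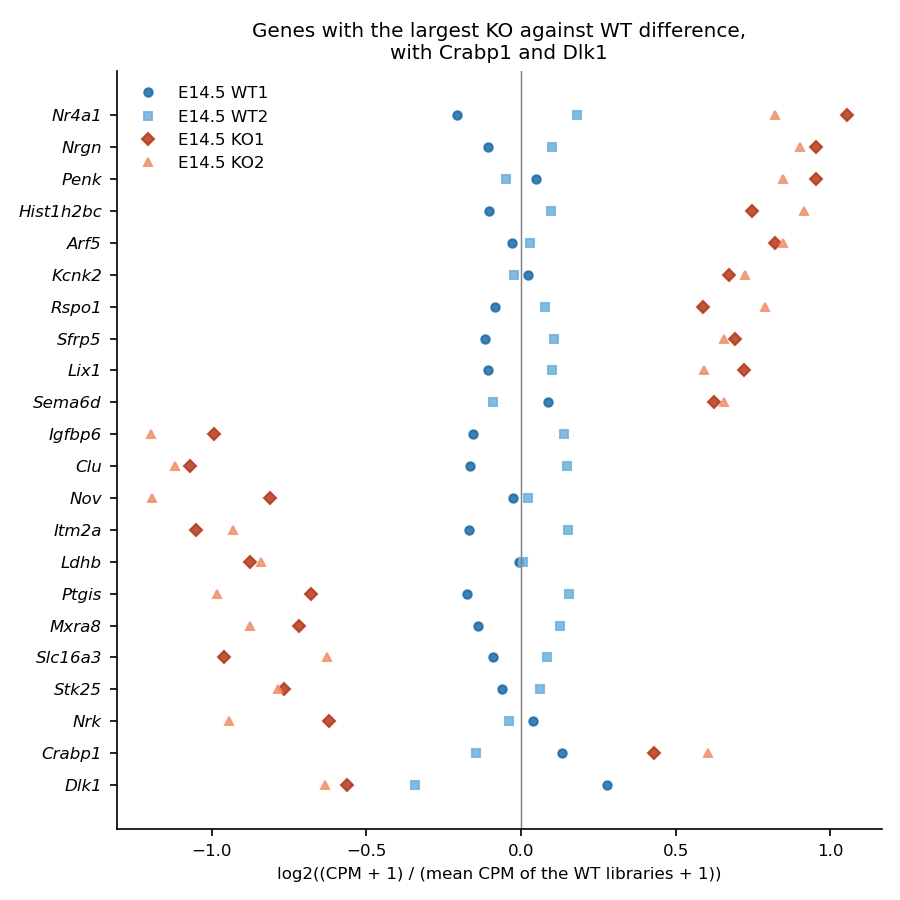
Level of named genes in each E14.5 library, as log2 of (CPM plus 1) over (mean CPM of the WT libraries plus 1), for the 10 most different named genes in each direction and for Crabp1 and Dlk1, which did not pass. The KO libraries lie apart from the WT libraries for each of the 20, which the rule for naming them required, and the WT libraries are far apart for Dlk1.

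The libraries also differed in genes of position along the body. Hoxc9 was at 35.8, 16.2, 3.28 and 35.0 CPM in WT1, WT2, KO1 and KO2, and Hoxc10 at 1.22, 0.15, 0.03 and 12.4 CPM. KO1 was thus the lowest library for both, and KO2 was the highest for Hoxc10 and close to WT1 for Hoxc9. Hoxc5 was at 30.0, 44.6, 86.8 and 64.0 CPM. Of 27 Hox genes 2 passed by genotype, Hoxd8 and Hoxd9, both higher in KO. Some of the largest fold changes were at low-level genes of other mesenchyme. Foxc2, a forkhead factor of mesoderm, was at 2.52 and 2.69 CPM in WT and 0.22 and 0.29 CPM in KO, and Acan, Col2a1, Pax9 and Foxc1 were also lower in KO. How far the place of the biopsy enters the differences by genotype was not tested. Gm13305, a gene of a family of near-identical copies that was chosen after its values were seen, was at 2.89 and 2.69 CPM in WT and at 240 and 279 CPM in KO, and at 2.48 to 2.75 CPM in all libraries at E16.5. Whether the E14.5 genotypes also differed in genetic background, which would bear on each genotype difference, was not tested. Leaving out KO2 gave 50 calls, 30 of them among the 218, and leaving out KO1 gave 94, 49 of them among the 218, with the single library left assumed to vary like the others.

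Whether the ends differed by genotype was tested as an interaction. Of 13261 genes 163 (1.23%) passed, 28 (0.211%) with a Crabp1-end minus Dlk1-end difference in KO above that in WT and 135 (1.02%) with one below it. Sfrp2 was at 1244 and 1586 CPM at the Dlk1 end and 84.6 and 115 CPM at the Crabp1 end in WT, and at 1077 and 908 CPM and 27.9 and 21.0 CPM in KO, an interaction of −1.49 (SE 0.08) on the log2 scale. Cpe, carboxypeptidase E, was at 12.5 and 19.8 CPM at the Crabp1 end of WT and 2.15 and 3.31 CPM in KO, with 80.3 and 94.8 against 56.4 and 81.4 CPM at the Dlk1 end. Cpxm2, another carboxypeptidase family member, moved at the Dlk1 end instead, at 11.1 and 10.6 CPM in WT and 31.0 and 49.4 CPM in KO. The cuts between ends lay at higher scores in KO, with −3.03 and −2.12 for the Dlk1 end against −4.23 and −4.32 in WT, so the ends of the genotypes do not hold like cells. Without KO2 57 genes passed, and without WT1 334.

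At E16.5 the fibroblasts had less Crabp1. Crabp1 was at 1898, 1567, 2333 and 2638 CPM at E14.5 and at 687, 804, 696 and 637 CPM at E16.5 in WT1, WT2, KO1 and KO2 of each age. This was a log2 difference of 1.38 (SE 0.15, adjusted p = 3.3e-04, edgeR), and the ages did not overlap. Dlk1 was at 4090 to 4578 CPM at E16.5, a difference of 0.16 (SE 0.21, adjusted p = 0.57). Its direction turned without E14.5 WT1, at −0.071 (adjusted p = 0.51), and in the KO libraries alone, where it was lower at E14.5 by −0.23 (adjusted p = 0.0062, edgeR). Among cells with at least 10 Crabp1 UMIs per 10000, Dlk1 was higher at E14.5 by 1.21 (adjusted p = 0.014, edgeR). Cells with at least 10 Crabp1 UMIs per 10000 were 26.2% to 35.9% of fibroblasts at E16.5 against 41.2% to 66.5% at E14.5. Of 14157 genes 44.4% passed, 3174 (22.4%) higher at E14.5 and 3106 (21.9%) higher at E16.5. The E16.5 libraries had Xist at 1089 to 1210 CPM in WT1, WT2 and KO2 and at 0.36 CPM in KO1, so 3 of 4 had a female pattern against 1 of 4 at E14.5, and the mix of sexes by genotype differed between the ages too. The study's methods describe both sexes in each genotype and age. The values showed both in E14.5 WT and E16.5 KO, but only a male pattern in E14.5 KO and only a female pattern in E16.5 WT. The part of sex in the tests by age was not tested. The ages came from different litters and preparations, which cannot be told apart from age, and all tests against E16.5 share the E14.5 libraries with the tests by genotype.

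Upper dermis genes did not move together with age. Of 20, 4 were higher at E14.5 and 10 at E16.5, against 22.4% and 21.9% of all genes, so the 4 were near the share of all genes. Sp5 was at 34.5 to 56.9 CPM at E14.5 and 8.15 to 11.2 CPM at E16.5 (log2 1.98). Opposite to it, Trps1, a GATA-type repressor of skin and hair, was at 16.54 to 22.1 CPM at E14.5 and 157 to 163 CPM at E16.5 (log2 −3.22, SE 0.08, adjusted p = 7.3e-08). Cyp26b1 was at 7.58 to 9.55 CPM against 40.0 to 48.3 CPM, and Lef1 was lower at E14.5 by −1.08. Of 20 lower dermis genes 4 were higher at E14.5, among them Ptn and Mest, and 10 at E16.5, among them Ly6a by −2.86. The 4 were again near the 22.4% of all genes.

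Of 39 Wnt pathway genes 17 were higher at E14.5 and 8 at E16.5, against 22.4% and 21.9% of all genes. Sfrp1 was at 114 to 166 CPM at E14.5 and 25.4 to 43.0 CPM at E16.5 (log2 1.83, SE 0.20), and Rspo1 at 68.3 to 126 CPM against 39.4 to 45.7 CPM. Wif1 went the other way, by −1.81. Of 11 Hedgehog pathway genes 2, Cdon and Sufu, were higher at E14.5 and 5 at E16.5, against the same shares of all genes. Their median log2 difference was −0.06. In cells of high Crabp1, Cdon was lower at E14.5 instead, by −0.23 (adjusted p = 0.036, edgeR). Among the 5 higher at E16.5, Ptch1 was at 14.7 to 19.8 CPM against 61.0 to 65.3 CPM (log2 −1.97, SE 0.09), and Gli1 differed by −1.32. Of 18 condensate genes, a list that also holds Ptch1 and Gli1, 12 were higher at E16.5, with Cdkn1a by −2.49 and Bmp4 by −1.24.

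Most collagens were lower at E14.5. Leaving aside the 3 chains of the cell rule, 14 of 20 were higher at E16.5 and 2 at E14.5, Col26a1 and Col2a1. Col5a3 differed by −2.14 and Col15a1 by −2.07. The rule requires collagen at both ages, and the median collagen per 10000 UMIs was 106 to 128 at E14.5 and 225 to 262 at E16.5. Fabp4 was at 3.66 to 29.5 CPM at E14.5 and 90.002 to 260 CPM at E16.5 (log2 −3.45, SE 0.78, adjusted p = 0.018), one of 5 of 10 preadipocyte genes that were higher at E16.5. Retinoid genes were divided, with 7 of 16 higher at E14.5, among them Stra6, a retinol transporter, at 5.11 to 7.20 CPM against 0.20 to 0.29 CPM, and 6 higher at E16.5. Of 23 hypoxia and glycolysis genes 14 were higher at E14.5 and 2 at E16.5. Of 27 Hox genes 9 were higher at E14.5, with Hoxc5 by 1.74, and 2 at E16.5. For all lists of this paragraph, the shares of all genes were 22.4% higher at E14.5 and 21.9% higher at E16.5.

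**Figure D5:**
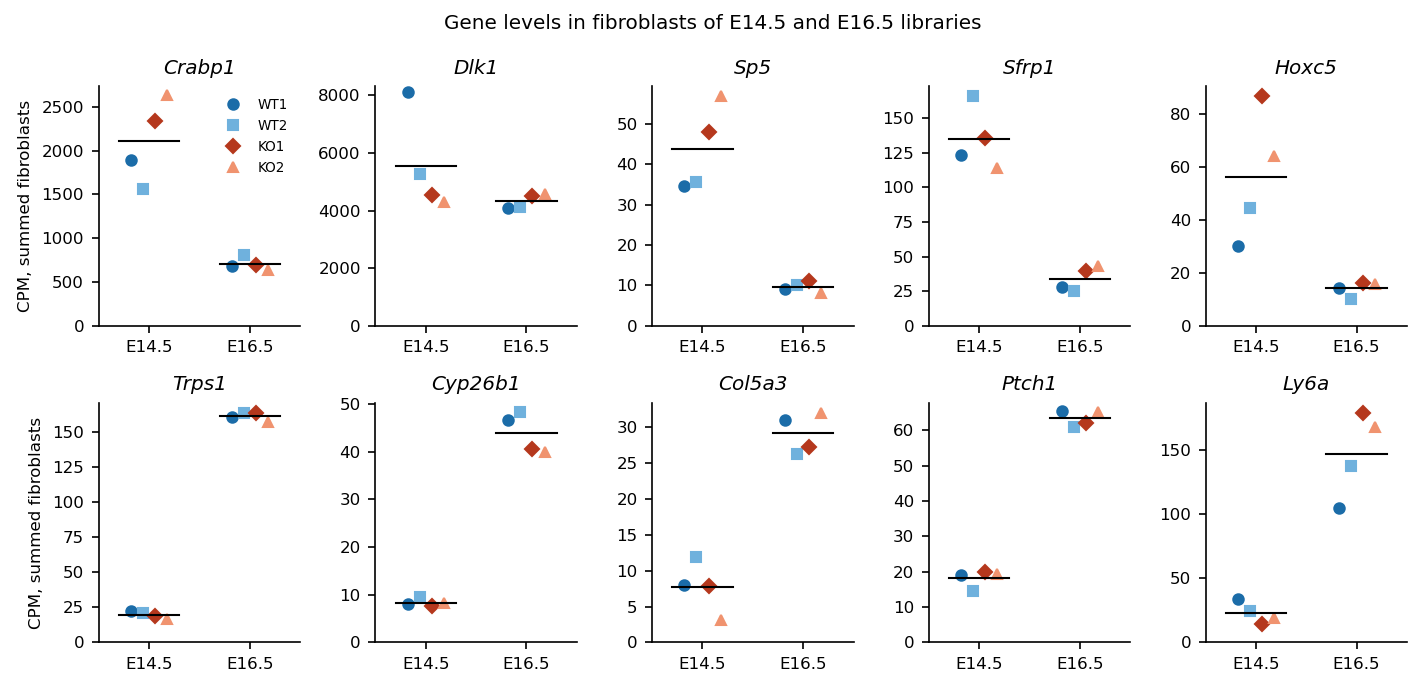
Levels of 10 genes in the summed fibroblasts of the E14.5 and E16.5 libraries, in CPM on linear axes from 0, with 1 point per library and a line at the mean of 4. Crabp1 is at 1567 to 2638 CPM at E14.5 and at 637 to 804 CPM at E16.5, Trps1 is at 16.54 to 22.1 CPM and 157 to 163 CPM, and the Dlk1 of WT1 at E14.5 stands above the rest.

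RNA of other cells changed with age as well. Summed blood genes were at 5059 to 6216 CPM at E14.5 and 12538 to 30667 CPM at E16.5, keratinocyte genes at 125 to 354 CPM and 328 to 1139 CPM, and all 11 macrophage genes tested were higher at E16.5. The most changed gene was the embryonic globin Hbb-y, at 219 to 545 CPM at E14.5 and 0.98 to 5.33 CPM at E16.5. After genes of other cells were removed, 6231 of 14072 genes passed in place of 6280 of 14157. This step only drops the listed genes, so it cannot show what RNA of other cells adds to the remaining genes.

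Whether the genotypes differed alike at both ages was tested as an interaction of genotype with age, over all 8 libraries. Of 14867 genes 326 (2.19%) passed, 158 (1.06%) with a KO-minus-WT difference at E14.5 above that at E16.5 and 168 (1.13%) with one below it. Sfrp5 had an interaction of 0.85 and Nkd1 of 0.89, so their KO-minus-WT differences at E14.5 were above those at E16.5. Fbln5 had one of −0.91. Without E16.5 WT1 33 genes passed, and without E14.5 WT1 560.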

How the data were processed

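The deposited files hold, per the file headers and the labels, raw UMI counts for 27998 genes per cell barcode, made by the authors with Cell Ranger on mm10. The submitters' processing notes give version 1.3.1, and the methods text names another version. The methods describe dispase and accutase dissociation and dead cell removal. Each of the 4 E14.5 and 4 E16.5 libraries was mapped to its genotype from the labels. The members and gene lists were chosen with earlier results of these data known. Cells were filtered as described, doublets were limited by the gene maximum and the marker exclusions only, and no doublet caller was run. Counts were summed per library, or per library and end, and tested in edgeR 4.0.16 (TMM scaling, filterByExpr, robust quasi-likelihood fit, Benjamini-Hochberg adjustment over all genes tested, threshold 0.05) under R 4.3.3. DESeq2 1.42.0 was an alternative. Designs were KO against WT, library plus end, genotype plus age, and the interactions of genotype with end and with age. CPM values are UMIs per 1000000 of the summed cells, without TMM factors. The edgeR p-values for genotype, age and their interaction rest on the spread between libraries. Those for the ends and their interaction with genotype rest on how the end difference varies between libraries. In each test the spread of a gene is moderated by that of other genes. Each SE given with an edgeR value was calculated back from the test, as the absolute log2 difference over the square root of its F statistic.

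Genes named were the 10 most changed in each direction among called genes whose groups were separate, whose mean log2 CPM reached 5 and whose symbol was a name, and up to 4 called members of each list (mean log2 CPM from 4). Further list members are named where a count turns on them, and these were chosen after their values were seen. Phase scores and detection shares used cells thinned to 2500 UMIs, with exact (Clopper-Pearson) 95% intervals, which cover counting error only. Alternatives were RLE scaling, no filter on low counts, other limits for collagen and mitochondrial UMIs, equal UMIs, other cuts of the range, cells outside S and G2M phase, and each library left out. Each test was tried on simulated data in which 100 abundant genes were changed 2-fold, 100 were changed 4-fold and no other gene was changed. Smaller changes and changes at low-level genes were not tried. It recovered nearly all of the changed genes and also called unchanged genes. In the tests of genotype, of the ends and of both interactions, these were a share of the calls above the 0.05 that was set. In the test by age they were not. These shares hold for the simulated setting, and the share in the data was not tested. Same-numbered WT and KO libraries at E14.5 had deviations correlated at −0.05 over 14157 genes, so the numbers did not pair them.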

Additional observations from a re-analysis of the deposited data

Results flagged for a closer look

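Results that differed between groups by a test of the difference itself are given here as values. For the interaction of genotype with the end of the range, 163 of 13261 genes passed an adjusted p of 0.05 in edgeR. Beyond those given above, P4ha2, the prolyl hydroxylase subunit, had an interaction of 0.63 (SE 0.10) and Nov of 0.84 (SE 0.18).

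For the interaction of genotype with age, 326 of 14867 genes passed. Arf5 was at 273 and 285 CPM in WT and 494 and 502 CPM in KO at E14.5, and at 261 to 278 CPM in all 4 libraries at E16.5, an interaction of 0.81. Lef1 had an interaction of 0.80, with 56.5 and 63.9 CPM in WT and 56.2 and 48.6 CPM in KO at E16.5. Sfrp2 had an interaction of −1.40, with 246 and 252 CPM in WT and 318 and 326 CPM in KO at E16.5, and 689 and 959 CPM against 460 and 367 CPM at E14.5. Ldhb had one of −1.42, with 24.4 and 24.4 CPM in WT and 31.4 and 37.9 CPM in KO at E16.5. The count moved with single libraries. It was 33 without E16.5 WT1, 67 without E16.5 WT2, 75 without E16.5 KO2, 192 without E16.5 KO1, 142 without E14.5 KO2 and 560 without E14.5 WT1.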

How the results depend on the processing

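KO against WT gave 439 calls with DESeq2, 592 with no filter on low counts, 92 without cells in S or G2M phase, 50 in cells of high Crabp1 and 123 in cells of low Crabp1 (68 higher and 55 lower in KO), against 218. The calls shared with the 218 were 215, 218, 85, 27 and 44. Leaving out 1 library gave 50 to 280, and the calls shared with the 218 were 49, 30, 125 and 81 without KO1, KO2, WT1 and WT2. With the replicate number as a block, 120 genes passed, 104 of them among the 218, but the numbers do not pair the samples. For the ends, detection classes gave 1999, with few cells in the class of Crabp1 without Dlk1. Other settings gave 6133 to 8582, no replicate block 7248, and leaving out 1 library 7091 to 7427. For age, all settings gave 4643 to 6350, the replicate block 5967, and leaving out 1 library 5269 to 5810. The interaction with end gave 54 with DESeq2, 478 with no filter, 104 without S or G2M cells, and 57 to 334 leaving out 1 library. The interaction with age gave 677 with no filter, 77 without S or G2M cells, and 33 to 560 leaving out 1 library.

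The mean share of fibroblasts was 60.4%, 37.3% at a collagen limit of 100, and 58.4% to 62.8% leaving out 1 library. The share of cells with Crabp1 was 74.1%, with 88.1% unthinned, 67.5% at 1500 UMIs, 61.5% for 2 UMIs, and 71.6% to 77.4% leaving out 1 library. For Dlk1 these were 98.7%, 99.8%, 96.2%, 96.0%, and 98.4% to 99.1%, and for both genes 73.2%, 87.9%, 64.5%, 58.6%, and 70.8% to 76.7%. The share in S or G2M phase was 34.0%, and 32.6% to 35.9% leaving out 1 library.

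Directions of named genes turned in 12 of the values tried. In cells of low Crabp1, Loxl1, Nid2 and B2m were higher in KO by 0.18, 0.044 and 0.074. Krt1 was at −0.29 between detection classes. By age, Nrgn was at −0.061 in cells of low Crabp1, Aspn at 0.18, Mfap5 at 0.53, Cdon at −0.23 (adjusted p = 0.036, edgeR) and Zim1 at 0.066 in cells of high Crabp1, and Dlk1 at −0.23 in KO libraries alone (adjusted p = 0.0062, edgeR), −0.18 in cells of low Crabp1 and −0.071 without E14.5 WT1, where leaving out other libraries gave 0.069 to 0.27. Named genes by genotype were on the same side of the threshold in 446 values and lost the call in 177. The causes were not tested. With 2 libraries per group, small differences may have been missed, and the smallest size that can be detected was not tested.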

Other observations

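The E14.5 cells that met every criterion for a fibroblast except that they had a Sox2 UMI numbered 144, with 56, 29, 29 and 30 in WT1, WT2, KO1 and KO2. Sox2 marks the dermal condensate, and the summed cells of each library carried some other condensate genes at far higher levels than the fibroblasts, and not all. Bmp4 was at 130, 205, 228 and 270 CPM. Gal, the neuropeptide galanin, was at 62.1, 111, 54.3 and 157 CPM, and Foxd1, a forkhead factor, at 51.5, 71.9, 57.9 and 99.5 CPM. Cdkn1a, the cell cycle inhibitor p21, was at 90.6, 169, 130 and 318 CPM. Inhba was instead at 9.63 to 32.3 CPM against 25.9 to 44.3 CPM in the fibroblasts, Notum at 0 to 16.1 CPM against 8.96 to 17.3 CPM, and Rspo3 at 54.6 to 68.8 CPM against 49.997 to 68.4 CPM. Crabp1 was at 2466, 4273, 4364 and 4318 CPM in these cells and Dlk1 at 5300, 2218, 1869 and 2051 CPM. In WT2, KO1 and KO2 the Sox2 cells thus had more Crabp1 than Dlk1, and in WT1 less. The cells are few, and Sox2 was used to choose them, so these are values with no test.

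Gm13305 had the largest fold change by genotype among abundant genes and was left out of the named genes for its symbol, so it was chosen after its values were seen. It was at 2.89 and 2.69 CPM in the E14.5 WT libraries and at 240 and 279 CPM in the E14.5 KO libraries, a log2 difference of 6.53 (SE 0.12, adjusted p = 3.8e-07, edgeR). In both genotypes at E16.5 it was at 2.48 to 2.75 CPM. At E14.5 the values were alike at the ends of the range, with 207 and 265 CPM at the Dlk1 end of KO1 and KO2 and 245 and 275 CPM at the Crabp1 end. Il11ra1, an interleukin 11 receptor gene, was at 420 and 456 CPM in WT and 272 and 302 CPM in KO at E14.5 and at 286 to 313 CPM in all libraries at E16.5. Gm13305 belongs to a family of near-identical gene copies on chromosome 4, so its counts, and those of Il11ra1, are uncertain. Whether the E14.5 KO and WT embryos also differed in genetic background was not tested.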
